A study of Mus musculus with 62 samples.

Results

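The diaphragm is the muscle sheet that drives breathing and works without rest through life. Healthy diaphragm RNA was compared at 8 and 4 weeks after a mock injection, in the tumor-free control mice of a study of cancer cachexia, the muscle wasting that accompanies some tumors. The comparison used 10 of the 62 mice, 5 at 4 weeks and 5 at 8 weeks, chosen by the treatment and time in their labels and not by any measured value. All mice of the study were females with a labelled age of 2 months, and the age at sampling is not stated apart from the weeks after injection. The mock injection is PBS in the description of the experiment. The strain differs between sources: the sample labels give C57BL6/J, and the series design gives NCI Ath/nude mice, a strain without a thymus and with few T cells. The other mice carried cachectic or non-cachectic melanoma cells at 2, 4, 6 or 8 weeks, which makes 12 conditions with 5 mice each, apart from 7 cachectic mice at 8 weeks. Each library came from 1 mouse and held TPM values, which count reads per gene length and sum to 1000000 in every library. Levels are given below in TPM and differences on the log2(TPM + 1) scale, 8 minus 4 weeks, on which the change of a low gene is understated.

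Diaphragm fibers contract by sliding myosin along actin and draw their energy mainly from mitochondria. The 4 adult myosin heavy chain genes mark the fiber types, with Myh7 in slow fibers, Myh2 in fast oxidative fibers, and Myh1 and Myh4 in faster ones. Embryonic and neonatal myosins (Myh3 and Myh8) mark developing or regenerating fibers, and satellite cells, the muscle stem cells, are marked by Pax7. Genes of the circadian clock cycle within each day in muscle as in other tissues, and vessels, fat, nerve and the mesothelial cover of the diaphragm add their own RNA. In whole tissue, fewer cells of a type and less RNA per cell cannot be told apart.

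The 10 libraries held 18026 to 18714 genes above 0, and mitochondrially encoded genes took 40.9% to 49.3% of the TPM. Read depth is unknown. Muscle fiber genes were abundant, with Myh1 between 3608 and 5740 TPM. Of the 12 T cell genes listed, 6 (Cd3d, Cd3e, Cd3g, Cd4, Cd8a and Foxp3) reached at most 0.431 TPM in any of the 10 mice. Not all of the list was so low: 2 of the 12 reached the level needed to be tested, and their sum ran from 15.6 to 34.8 TPM over the 10 mice. The 8 lung genes listed reached at most 0.728 TPM. Liver RNA was present in uneven amounts, as given below.

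The 4- and 8-week control diaphragms were close to each other across the genome. limma was fitted to log2(TPM + 1) of the 13578 genes that reached 1 TPM in 5 or more of the 62 mice, and called 0 genes at a Benjamini-Hochberg adjusted p under 0.05 (percent called 0). At an unadjusted p under 0.05 there were 120 genes, 0.884% of those tested, 97 with higher (0.714%) and 23 with lower values (0.169%) at 8 weeks. With TPM rescaled by median ratios the same threshold held 79 higher and 42 lower genes, and with the values centred by GC content 81 and 56. Among the 13578 differences the 5th percentile was -0.27, the median 0.04 and the 95th percentile 0.26, and 67.7% of the genes were above 0. Counts of list members above 0 below are to be read against that share. There were 70 genes with a difference of more than 1 on the log2 scale in either direction, 50 of them with a mean of at least 5 TPM.

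The data bound how far most genes could have moved. The 95% interval of the difference lay inside -1 to 1 for 92.4% of the genes and inside -0.5 to 0.5 for 48.7%, when the spread was shared by all 62 mice. With the spread of the 10 control mice alone these shares were 95.2% and 81.9%. The median standard error was 0.207 in the first fit and 0.0919 in the second. The 10-mouse fit called 1 gene (0.00736%), Gm20431, and held 1048 genes at an unadjusted p under 0.05 (7.72%), 960 of them higher (7.07%) and 88 lower (0.648%) at 8 weeks. Array quality weights, which give noisier libraries less influence, called 357 genes, 349 of them higher, but their estimation stopped before it converged. With equal weights over the 62 mice none was called. The weights also moved the median difference over all genes, from 0.045 to 0.0777. The count of called genes thus depended on the weights and on which mice shared the spread. Standard errors and p-values by limma below are from the 62-mouse fit unless another fit is named. That spread takes in mice with melanoma cells and is not the spread of the 10 control mice alone.

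**Figure D1:**
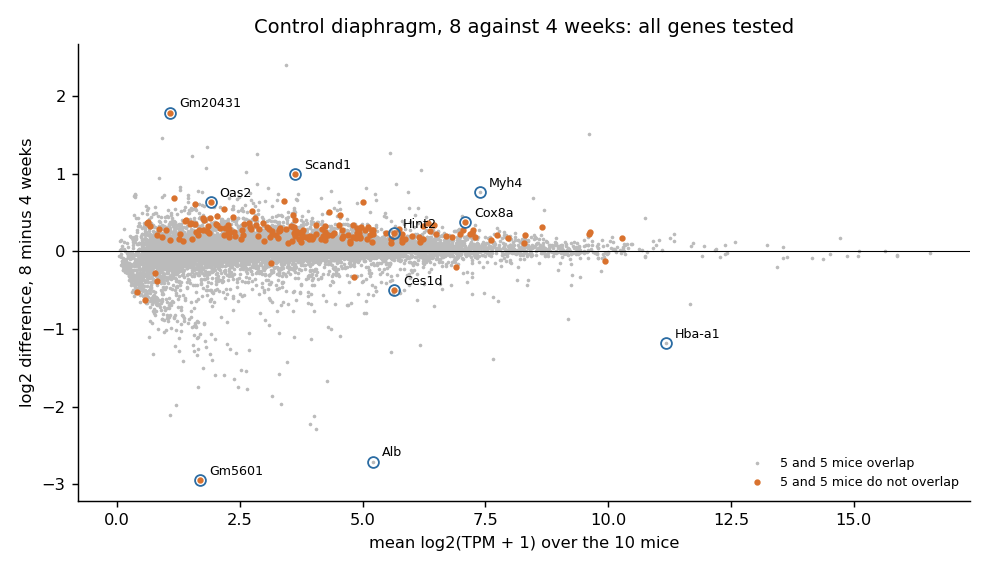
Each dot is 1 of the 13578 genes, placed by its mean log2(TPM + 1) over the 10 control mice and by its log2 difference, 8 minus 4 weeks; orange dots are the 186 genes in which the 5 and 5 mice do not overlap, and circled genes are described in the text. Most dots lie near 0, 176 of the orange ones lie above it, and the widest gaps below it include Alb and Gm5601.

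In 186 genes (1.37%) the 5 values at 8 weeks did not overlap the 5 values at 4 weeks. Of these, 176 were higher (1.3%) and 10 were lower (0.0736%) at 8 weeks. The lean toward higher values moved with base composition. Over the 13152 genes with a known GC content, split into 5 groups of like size, the median difference went from 0.00 in the group with the least GC to 0.03, 0.04, 0.07 and 0.11 in the group with the most, and the genes that did not overlap upward went from 8 to 15, 24, 36 and 82. The non-cachectic mice, other animals at the same weeks, had medians of 0.01, 0.03, 0.05, 0.07 and 0.09 over the same groups. Replicates of the control group at 4 and 8 weeks came from separate mice, and the part of GC content in the differences of single genes was not tested beyond the centring given above.

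Among the named genes, 12 had higher values at 8 weeks without overlap, and none passed the adjusted test (limma, adjusted p = 1 for each). Their log2 differences lay between 0.22 and 0.99. They were chosen by their p-values. Cox8a, a subunit of cytochrome c oxidase, measured 117, 126, 115, 114 and 124 TPM at 4 weeks and 134, 164, 187, 152 and 143 TPM at 8 weeks. All 5 later mice were above all 5 earlier ones, by a log2 difference of 0.38 ± 0.17 (SE, unadjusted p = 0.0269, limma). The gene lies on chromosome 19 from 7215153 to 7217616 (GRCm38). Timm10b, of the mitochondrial import machinery, had 5.93, 6.55, 7.17, 6.43 and 7.36 TPM at 4 weeks and 7.56, 8.95, 8.89, 8.57 and 8.12 TPM at 8 weeks, a log2 difference of 0.29. Hint2, a mitochondrial nucleotide hydrolase, averaged 44.7 ± 2.53 TPM and 52.9 ± 3.11 TPM (SD, n = 5 each). Chchd7, a small mitochondrial protein with paired cysteines, averaged 7.20 ± 0.893 TPM and 8.79 ± 0.392 TPM (SD, n = 5 each).

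Of the 12, the difference was largest for Scand1, a small nuclear protein with a SCAN domain. Its values were 6.13, 8.36, 7.88, 6.87 and 10.2 TPM at 4 weeks and 13.6, 20.1, 23.7, 15.3 and 12.2 TPM at 8 weeks. The log2 difference was 0.99 ± 0.34 (SE, unadjusted p = 0.00506, limma). The gene lies on chromosome 2 from 156311847 to 156312704 (GRCm38) and has a GC content of 68.4%. In the non-cachectic mice its difference was 0.46 (unadjusted p = 0.183, limma). RNA handling was represented by Lsm4, of the ring that binds U6 RNA, with 30.3 ± 2.28 TPM and 37.9 ± 2.69 TPM (SD, n = 5 each), and by Rnaseh2c, a subunit of the enzyme that removes RNA from DNA, with 5.05 ± 0.476 TPM and 7.18 ± 1.28 TPM (SD, n = 5 each).

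The replication-dependent histone gene Hist1h4h (histone H4) had 24.97 ± 3.76 TPM at 4 weeks and 39.3 ± 7.08 TPM at 8 weeks (SD, n = 5 each), a log2 difference of 0.63. It is 1 of a family of near-identical copies, so its reads may be shared with others. The remaining genes of the 12 were Fam212a, Alkbh6, Fam173a, a methyltransferase of mitochondria, and Apoa1bp, an epimerase that repairs damaged NAD, with log2 differences of 0.44, 0.32, 0.29 and 0.22. Of the 12, 11 also had differences above 0 in the non-cachectic mice, where the smallest unadjusted p was 0.111 and where 67% of all genes tested were above 0.

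On the other side the rule found 2 genes. Ces1d, a lipase and carboxylesterase of fat cells and liver, had 63.9, 54.7, 55.9, 53.9 and 63.6 TPM at 4 weeks and 34.4, 31.8, 46.8, 44.7 and 49.97 TPM at 8 weeks. The highest later value was below the lowest earlier one, and the log2 difference was -0.50 ± 0.33 (SE, unadjusted p = 0.141, limma, 62 mice; 0.00193 in the fit of the 10 mice, adjusted p = 0.435). Markers of fat and liver were also lower at 8 weeks, as given below, and their part in Ces1d was not tested. Tmem184c, a membrane protein, had 8.33 ± 0.371 TPM and 7.43 ± 1.00 TPM (SD, n = 5 each), with 8-week replicate 1, at 5.65 TPM, below the rest.

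Among the genes without overlap, Gm20431 and Gm5601 had the largest differences in each direction, and both were picked after their values were seen. Gm20431 (ENSMUSG00000089739.2, chromosome 2 from 167607850 to 167661496, minus strand, GRCm38) is a protein-coding locus that overlaps Ube2v1 and Tmem189 on the same strand. It was 0.00, 0.289, 0.484, 0.00 and 0.00 TPM at 4 weeks and 3.00, 3.81, 2.73, 2.19 and 3.08 TPM at 8 weeks. The log2 difference was 1.79 ± 0.43 (SE, unadjusted p = 0.000118, limma), which did not pass adjustment over 62 mice and did in the fit of the 10 mice (adjusted p = 0.00157). In the non-cachectic mice the difference was 0.31 (unadjusted p = 0.468, limma). Reads of the overlapping genes can be assigned to it, so its value is uncertain.

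Gm5601 went the other way, with 16.3, 2.61, 2.57, 16.5 and 14.2 TPM at 4 weeks and 0.202, 0.143, 0.00, 0.142 and 0.390 TPM at 8 weeks. Its log2 difference was -2.95 ± 0.86 (SE, unadjusted p = 0.00115, limma). The non-cachectic difference was -0.98 (unadjusted p = 0.258, limma). Gm10053, a predicted gene, was the only gene whose groups did not overlap in both the control and the non-cachectic mice, at 1029 ± 37.2 and 946 ± 29.3 TPM (SD, n = 5 each) in the controls.

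Alb, which codes for serum albumin and belongs to liver, served as a sign of liver RNA, since the diaphragm lies against the liver. At 4 weeks Alb measured 911, 29.0, 50.1, 88.2 and 59.6 TPM in replicates 1 to 5, and at 8 weeks 0, 77.6, 186, 0.695 and 24.2 TPM. The lowest mice were both at 8 weeks and the highest was at 4 weeks, but 3 later mice lay inside or near the range of the earlier ones. On the log2(TPM + 1) scale the means were 6.56 ± 1.91 and 3.85 ± 3.34 (SD, n = 5 each), a difference of -2.71. An exact two-sided permutation test over every split of the 10 mice into 5 and 5 gave p = 0.198, where the smallest p possible is 0.00794.

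Many genes of the liver list moved with Alb mouse by mouse, such as Apoa2, with a correlation of 0.99 on the log2 scale over the 10 mice. Others followed it less closely, such as Cyp2e1, with a correlation of 0.62. All 17 liver genes tested had differences below 0, with a median of -1.21 against 0.04 over all genes, and 0 of 17 reached an unadjusted p under 0.05 by limma. Control replicate 1 at 4 weeks held the highest of the 10 values in 17 of 17 genes, and without it the median of the list was -0.55. Control replicate 1 at 8 weeks held the lowest in 13 of 17. The mean of the list was 3.21 ± 1.39 at 4 weeks and 1.97 ± 1.31 at 8 weeks (SD, n = 5 each; exact permutation p = 0.198). Apoa2, an apolipoprotein of liver, had 309 TPM in 4-week replicate 1 and 0.0901 TPM in 8-week replicate 1. Trf, transferrin, the iron carrier of blood, measured 204, 134, 72.1, 58.9 and 124 TPM at 4 weeks and 18.4, 50, 98.4, 70.4 and 32.2 TPM at 8 weeks, a log2 difference of -1.21 (unadjusted p = 0.115, limma). With the liver list as a covariate the number of genes called stayed at 0, with 136 at an unadjusted p under 0.05.

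**Figure D2:**
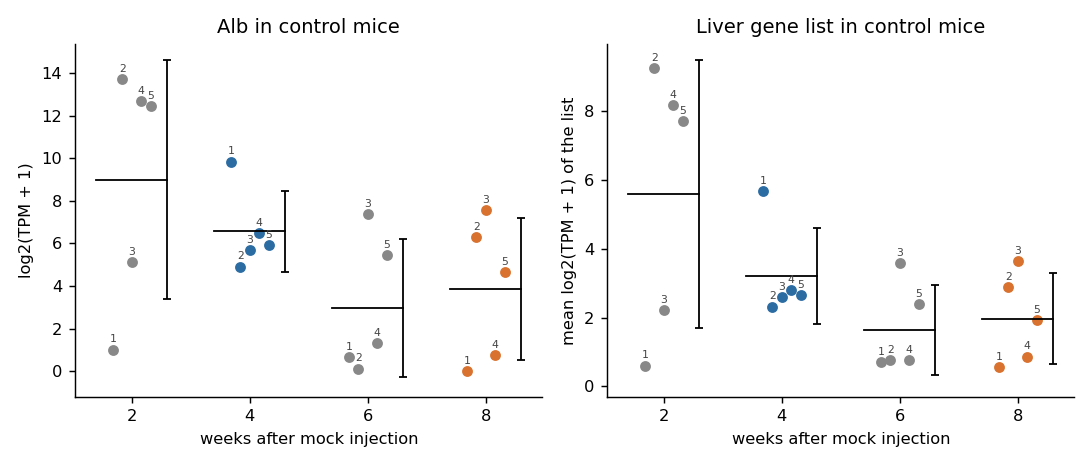
Dots are single control mice, numbered by replicate, at 2, 4, 6 and 8 weeks; the left panel plots log2(TPM + 1) of Alb and the right panel the mean log2(TPM + 1) of the liver gene list, with a line at each group mean and a bar of 1 SD (n = 5). The 4-week mice run from 29.0 to 911 TPM of Alb and the 8-week mice from 0 to 186 TPM, so the groups overlap, and the widest spread is at 2 weeks.

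Of the main contractile genes, Myh1, Myh2 and Myh7 had log2 differences smaller than their standard errors in the fit over 62 mice. Myh1 stood at 4694 ± 759 and 4803 ± 848 TPM, Myh2 at 3276 ± 143 and 3571 ± 562 TPM, and Myh7 at 369 ± 48.6 and 429 ± 69.9 TPM (SD, n = 5 each, 4 and then 8 weeks). Their log2 differences were 0.03, 0.11 and 0.21, with standard errors of 0.439, 0.297 and 0.399 and unadjusted p-values of 0.946, 0.707 and 0.603 (limma). The 95% interval for Myh1 ran from -0.85 to 0.91 in this fit, whose spread was shared by all 62 mice, so changes within it stayed possible there. Over all genes the median standard error was 0.207 in that fit and 0.0919 with the spread of the 10 mice alone. With single mice left out, the difference of Myh7 stayed above 0, from 0.144 to 0.283. On the TPM scale, which is per length, Myh1 and Myh2 stood far above Myh7 in every mouse, and Myh4 had the lowest mean of the 4 genes in both weeks.

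Myh4, the heavy chain of the fastest fibers, differed most between mice of the same week. It measured 27.98, 105, 253, 465 and 95.9 TPM at 4 weeks and 184, 51.5, 283, 499 and 355 TPM at 8 weeks. The ranges overlapped almost in full, and the log2 difference of 0.76 had a standard error of 0.863. Actn3, the alpha-actinin of fast fibers, spread over the mice as well, from 57.7 to 183 TPM at 4 weeks and from 83.9 to 251 TPM at 8 weeks. All 8 myosin heavy chain genes listed had differences above 0, with a median of 0.16, which became 0.29 without 4-week replicate 5, 0.10 without 8-week replicate 2 and 0.08 after centring by GC content. No member reached an unadjusted p under 0.05 by limma. The 14 fast fiber genes had a median of 0.08 and the 10 slow fiber genes one of 0.06, which were 0.02 and 0.01 after centring by GC content.

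The embryonic and neonatal myosins had log2 differences near 0, within a wide spread. Myh3 (embryonic myosin) ran from 2.48 to 7.89 TPM at 4 weeks and from 3.48 to 6.63 TPM at 8 weeks, and Myh8 (neonatal myosin) from 20.6 to 53.9 TPM and from 23.6 to 52.7 TPM. Their log2 differences were 0.10 ± 0.55 and 0.05 ± 1.00 (SE). The whole list of embryonic and immature muscle genes had 9 of 11 genes tested above 0 (67.7% of all genes). Its median was 0.17, and 0.11 after centring by GC content. At an unadjusted p under 0.05 stood 0 of the 11 by limma over 62 mice, and 2 in the 10-mouse fit (background 7.72%). Pax7, the satellite cell factor, was 1.48 ± 0.165 and 1.56 ± 0.110 TPM (SD, n = 5 each). Myod1, a regulator that commits cells to muscle, had 10.1, 9.74, 11.4, 8.78 and 9.27 TPM and then 9.52, 12.4, 13.8, 13.0 and 14.4 TPM, a log2 difference of 0.32 (unadjusted p = 0.338, limma; 0.0116 in the 10-mouse fit, adjusted p = 0.52). The 15 genes of satellite cells and myogenic regulators tested had a median of 0.04, which was -0.01 after centring by GC content, and 0 of them passed. At an unadjusted p under 0.05 stood 3 of the 15 in the 10-mouse fit (background 7.72%).

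Growth regulators varied between mice rather than between weeks. Mstn, which codes for myostatin, the secreted brake on muscle growth, measured 8.396, 7.59, 33.5, 51.8 and 46.0 TPM at 4 weeks and 14.0, 10.7, 19.5, 11.8 and 50.1 TPM at 8 weeks. It differed several-fold within each week, and the log2 difference of -0.31 had a standard error of 0.457. On the log2 scale Mstn had a correlation of 0.91 with Per2, a clock gene described below, over the 10 mice. The part of the clock in Mstn was not tested. Igf1, a growth factor, averaged 7.96 ± 2.95 and 6.61 ± 2.12 TPM (SD, n = 5 each). Fibcd1, the muscle-secreted factor at the center of the study, reached at most 0.0308 TPM in these mice and was listed at 0 in 3 of 10. It was below the level needed to be tested. Mki67, of dividing cells, was 0.804 ± 0.344 and 0.777 ± 0.291 TPM (SD, n = 5 each), and 12 of the 32 cell cycle genes listed reached the level needed to be tested.

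Among energy genes, those of oxidative phosphorylation varied little from mouse to mouse. The median SD within a week was 0.13 for genes of fatty acid use and 0.12 for glycolysis and glycogen, against 0.14 over all genes. The 44 nuclear-encoded genes of oxidative phosphorylation had a median difference of 0.02 and a median SD within a week of 0.07, with 31 above 0 and 0 passing the adjusted test. At an unadjusted p under 0.05 stood 2 of the 44 (background 0.884%), and 4 in the 10-mouse fit (background 7.72%). Cox5b, another subunit of cytochrome c oxidase, measured 361, 347, 375, 373 and 353 TPM at 4 weeks and 421, 491, 495, 422 and 425 TPM at 8 weeks, without overlap and with a log2 difference of 0.31 ± 0.14 (SE, unadjusted p = 0.0344, limma). Atp5g1, of the ring of the ATP synthase, had 194 ± 29.6 and 238 ± 23.9 TPM (SD, n = 5 each; unadjusted p = 0.0180, limma). Medians were 0.04 over 32 genes of fatty acid use, 0.05 over 27 of glycolysis and glycogen, 0.02 over 77 cytosolic ribosomal protein genes and 0.02 over 37 proteasome genes, with 0 genes at an unadjusted p under 0.05 in each. The ubiquitin ligases and autophagy genes linked to atrophy had a median of 0.05 over 24 genes, and Fbxo32 and Trim63, the ligases best known for muscle wasting, differed by 0.28 and 0.16 (unadjusted p = 0.522 and 0.725, limma). After centring by GC content the medians of these 6 lists, in the order given, were -0.02, -0.01, -0.02, -0.04, -0.04 and -0.02, so the sign of each depended on that step.

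The connective tissue matrix had differences near 0 as well. Col1a1, the main fibrillar collagen chain, averaged 60.7 ± 17.1 and 64.0 ± 19.3 TPM, and Col3a1 118 ± 36.8 and 112 ± 33.7 TPM (SD, n = 5 each). The 17 collagen genes tested had a median of 0.06, which was -0.05 after centring by GC content, -0.07 without 4-week replicate 5 and 0.24 without 8-week replicate 1. At the neuromuscular junction, the contact of nerve and fiber, 17 of 19 genes were above 0 (67.7% of all genes) with a median of 0.13, and 1 was higher without overlap between the weeks (background 1.3%): Rapsn, which gathers acetylcholine receptors, at 25.9, 27.9, 30.04, 26.7 and 25.9 TPM and then 30.2, 32.7, 35.1, 31.9 and 31.6 TPM. Its log2 difference was 0.23 ± 0.21 (SE, unadjusted p = 0.274, limma). After centring by GC content the median of the junction list was 0.07.

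Interferons are signals of infection and immune activity that switch on a shared set of genes, many of them by a repeated GAAA element before the gene start. That element, searched as GAAANNGAAA on both strands in the 250 bases before the start in the RefSeq promoter windows of GRCm38.p6, was present in 12 of the 23 interferon response genes with a window, and in 3.46% of all 27025 genes with one. It was in 0 of the 17 clock genes with a window. The sites of 4 genes whose values are described next are shown 5′ to 3′ on the strand of the gene, with every match in capitals, overlapping matches run together, and the rest in lower case:
Isg15 (chr4:156200855-156200916, minus strand): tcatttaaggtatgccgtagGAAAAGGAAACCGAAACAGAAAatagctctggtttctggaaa
Gbp7 (chr3:142530263-142530312, plus strand): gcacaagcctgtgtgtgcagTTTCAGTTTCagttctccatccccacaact
Gbp3 (chr3:142559979-142560034, plus strand): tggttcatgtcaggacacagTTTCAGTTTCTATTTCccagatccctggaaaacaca
Irgm1 (chr11:48871421-48871470, minus strand): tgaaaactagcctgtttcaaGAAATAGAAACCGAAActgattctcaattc
These letters describe the windows and were not measured here.

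The interferon response list had the highest median difference among the lists with at least 5 genes tested, 0.29 over 28 genes against 0.04 over all genes. Of the 28, 25 were above 0, 1 had an unadjusted p under 0.05 (background 0.884%), 0 passed the adjusted test, and 5 were higher at 8 weeks without overlap (background 1.3%). In the 10-mouse fit 13 had an unadjusted p under 0.05 (background 7.72%). The list was chosen with results of these data known. Its median was 0.24 after centring by GC content and 0.05 in the non-cachectic mice, and 0.19 without 4-week replicate 5.

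Oas2, a sensor of double-stranded RNA, had 2.28, 2.93, 2.36, 2.38 and 0.7103 TPM and then 3.08, 3.98, 4.34, 3.53 and 3.53 TPM (log2 difference 0.63 ± 0.41, SE, unadjusted p = 0.132, limma). Every later mouse lay above every earlier one. Tap1, which pumps peptides toward MHC class I, had 3.06, 1.95, 3.18, 2.96 and 1.56 TPM and then 3.71, 3.50, 3.72, 3.33 and 4.78 TPM (log2 difference 0.46 ± 0.22, SE, unadjusted p = 0.0435, limma). Xaf1, an interferon-induced promoter of cell death, averaged 2.68 ± 0.336 and 3.66 ± 0.389 TPM, and Irgm1, a GTPase of cell defense, 7.24 ± 0.850 and 8.62 ± 0.350 TPM (SD, n = 5 each). Both also kept the weeks apart.

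In many of these genes the lowest value belonged to 1 mouse, and without it the median of the list was 0.19 in place of 0.29. Control replicate 5 at 4 weeks held the lowest of the 10 values in 20 of the 28 genes. Isg15, a ubiquitin-like protein, was 4.25, 4.39, 4.15, 5.19 and 1.83 TPM at 4 weeks and 6.21, 7.38, 8.03, 3.57 and 6.07 TPM at 8 weeks, so 8-week replicate 4 overlapped the earlier mice. Irf7, the factor that amplifies the response, was 3.08, 2.81, 2.69, 2.69 and 1.34 TPM and then 3.28, 5.12, 3.89, 2.95 and 4.07 TPM. Gbp3 and Gbp7, guanylate-binding proteins, had 3.31 and 4.14 TPM in 4-week replicate 5 against at least 5.33 and 5.60 TPM in the other mice of that week. The 3 members below 0 were Ifi27l2a, a small interferon-induced membrane protein, with a log2 difference of -0.42 ± 0.62 (SE, unadjusted p = 0.504, limma), Rsad2 with -0.17 and Gbp2 with -0.00.

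**Figure D3:**
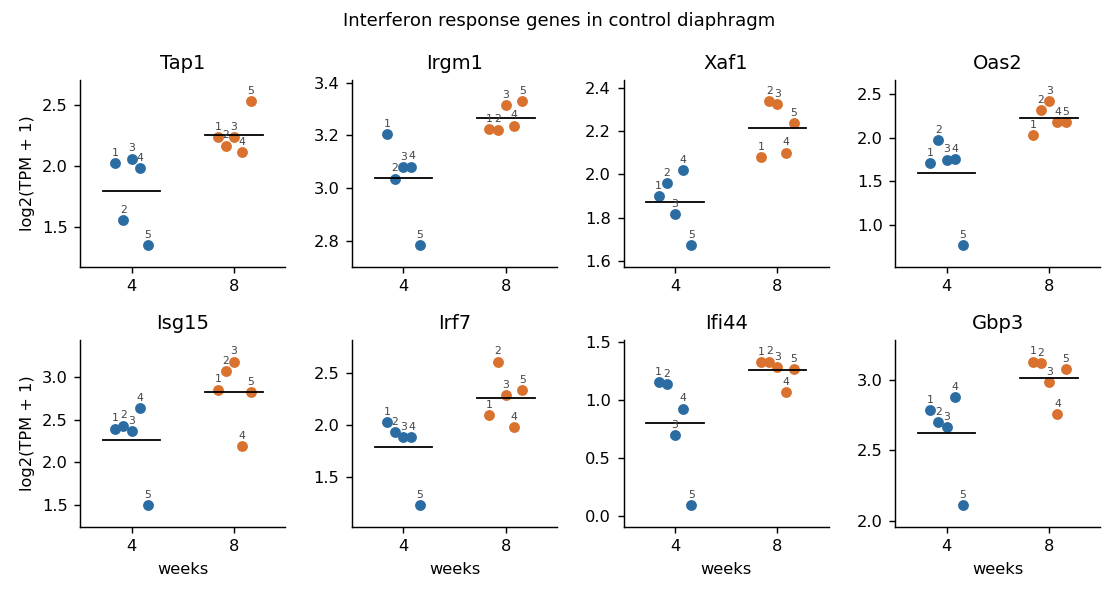
Each panel plots log2(TPM + 1) of 1 interferon response gene in the 5 control mice at 4 weeks (blue) and the 5 at 8 weeks (orange), numbered by replicate, with a line at each mean; the vertical axes do not start at 0. The weeks do not overlap for Tap1, Irgm1, Xaf1 and Oas2, overlap for Isg15, Irf7, Ifi44 and Gbp3, and 4-week replicate 5 is the lowest mouse in every panel.

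The same mouse was high in other lists. It held the highest of the 10 values in 14 of the 20 glucocorticoid target genes, 9 of the 15 macrophage genes and 7 of the 12 B and plasma cell genes. The mean log2(TPM + 1) of the glucocorticoid list was graded over 4-week replicates 1 to 5, at 4.72, 5.02, 5.09, 5.43 and 5.78. It rose over 8-week replicates 1 to 5 as well, at 4.75, 4.859, 4.95, 5.125 and 5.178. Fkbp5, a chaperone that glucocorticoids switch on, was 5.72, 5.22, 18.96, 26.3 and 42.8 TPM at 4 weeks and 6.64, 10.01, 7.79, 9.97 and 18.2 TPM at 8 weeks. On the log2 scale its correlation with Per2, a clock gene described below, was 0.83 over the 10 mice. Per1 belongs to the clock list as well, and the part of the clock in the glucocorticoid list was not tested. Adgre1, the macrophage marker F4/80, was 40.1 TPM in 4-week replicate 5 and between 3.95 and 9.97 TPM in the other 9. The glucocorticoid target list had a median difference of -0.26, and -0.09 without that mouse. The part of glucocorticoid level or macrophage number in the interferon values was not tested.

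Antigen presentation genes had a median of 0.20 over 16 genes in control mice and 0.30 in non-cachectic mice, with 14 of 16 above 0 in the controls (67.7% of all genes) and 1 at an unadjusted p under 0.05 (background 0.884%). In the 10-mouse fit 4 of the 16 had an unadjusted p under 0.05 (background 7.72%). The control median was 0.12 after centring by GC content. Tap1 belongs to this list as well. H2-K1, an MHC class I heavy chain, was 68.0, 53.8, 70.8, 60.7 and 38.0 TPM and then 65.1, 79.4, 88.0, 80.9 and 118 TPM, a log2 difference of 0.56 (unadjusted p = 0.0805, limma). MHC genes have close relatives, so reads may be shared among them.

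Clock genes varied far more within a week than between weeks. The circadian clock is a loop in which Arntl and Clock switch on the Per, Cry, Nr1d1 and Dbp genes. Per and Cry proteins then block the Arntl and Clock complex, Nr1d1 represses the Arntl gene, and Arntl and Per2 peak at opposite times of day. The 20 clock genes tested had a median SD within a week of 0.59, against 0.14 over all genes, and a median difference of -0.01, which ran from -0.08 to 0.13 when single mice were left out. Arntl measured 19, 18.6, 2.13, 1.37 and 1.24 TPM at 4 weeks and 10.2, 22.9, 6.80, 5.68 and 1.00 TPM at 8 weeks. Per2, a repressor of the loop, measured 1.72, 2.99, 21.8, 22.9 and 26.1 TPM and then 4.22, 1.70, 9.24, 12.04 and 28.3 TPM. Within each week the mice with high Arntl had low Per2, and the ranges of the weeks overlapped almost in full.

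The E-box, CACGTG, which Arntl and Clock bind, was found in the 250 bases before the start in 5 of the 17 clock genes with a RefSeq window, in 0 of the 23 interferon response genes and in 6.86% of all genes (GRCm38.p6, a palindrome that reads alike on both strands). The E-boxes of Ciart and Per1, repressors within the loop, and of Tef, a factor of the output, stand in capitals:
Ciart (chr3:95882255-95882364, minus strand): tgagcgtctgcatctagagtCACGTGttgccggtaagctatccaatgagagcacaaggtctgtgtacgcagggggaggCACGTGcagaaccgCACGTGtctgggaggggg
Per1 (chr11:69098763-69098808, plus strand): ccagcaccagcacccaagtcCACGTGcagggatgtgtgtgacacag
Tef (chr15:81802526-81802571, plus strand): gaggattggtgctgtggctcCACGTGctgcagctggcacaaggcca
Of these 3 genes, Ciart spread from 0.788 to 15.3 TPM over the 10 mice, Per1 from 5.04 to 47.8 TPM and Tef from 38.0 to 110 TPM.

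Over the 10 mice the values of Arntl and Per2 on the log2 scale had a Pearson correlation of -0.99. Of the other 19 clock genes, 10 had a correlation with Per2 over 0.8, Per3 and Tef at 0.98 and Dbp at 0.89, and 4 had one under -0.7, Arntl, Clock, Npas2 and Nr1d1. These points share their libraries and are given as a description. The time of day of tissue collection is not given in the sources used here.

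No clock gene passed the test between the weeks. Dbp, an output factor, had 70.3 ± 39.1 and 92.0 ± 50.5 TPM (SD, n = 5 each). Nr1d1, the repressor of Arntl, had the highest difference of the list, 1.04 ± 0.65 (SE, unadjusted p = 0.112, limma), with 121, 106, 58.6, 19.3 and 20.3 TPM at 4 weeks and 115, 139, 120, 111 and 55.9 TPM at 8 weeks. The low values belonged to 4-week replicates 4 and 5, which also had high Per2. Among 8359 genes with a mean of at least 5 TPM, ranked by their SD within a week, Arntl was 52nd and Per2 was 53rd.

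**Figure D4:**
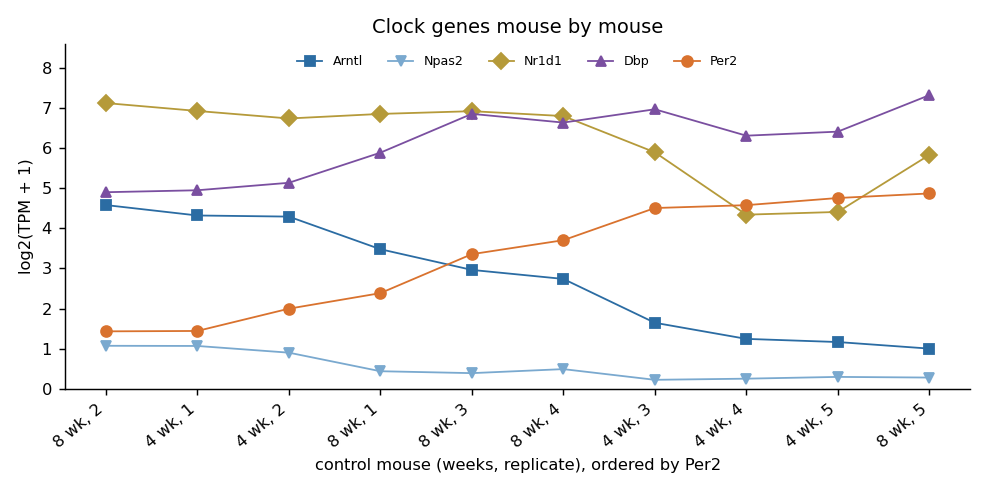
Lines join log2(TPM + 1) of 5 clock genes in the 10 control mice, ordered along the horizontal axis by their Per2 value and labelled by weeks and replicate. Arntl falls from mouse to mouse as Per2 climbs, and mice of 4 and 8 weeks are mixed along the order.

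In several lists of other cell types single mice held the extremes. Mesothelium, the cell layer on the surface of the diaphragm, had 10 of 10 genes below 0 with a median of -0.24. Control replicate 1 at 8 weeks held the lowest value in 10 of the 10 genes, with Msln (mesothelin) at 13.3 TPM against 24.7 to 55.4 TPM in the other 9 mice, and the median was 0.03 without it. The same mouse had Alb at 0, the fewest genes above 0 of the 10, and the lowest array weight. Without it, 176 genes in place of 120 were at an unadjusted p under 0.05, and 0 were called.

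Fat genes had 13 of 15 members below 0 and a median of -0.30, which was -0.19 without 8-week replicate 5. Adipoq, the hormone adiponectin of fat cells, measured 104, 93.9, 40.4, 11.1 and 28.2 TPM at 4 weeks and 21.1, 14.2, 61.7, 37.0 and 10.5 TPM at 8 weeks. It was high in 4-week replicates 1 and 2 and otherwise mixed (log2 difference -0.80, unadjusted p = 0.265, limma). Cfd, a protease of fat cells, ran from 77.7 to 647 TPM and from 84.0 to 474 TPM. The lipid synthesis list, which fat cells express strongly, had 20 of 25 genes below 0 and a median of -0.12, which was 0.00 without 4-week replicate 1, with Fasn, the fatty acid synthase, at a log2 difference of -0.50 (unadjusted p = 0.441, limma). The part of fat tissue in that list was not tested.

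Smooth muscle genes had 11 of 12 members above 0 (67.7% of all genes) and a median of 0.13, which was 0.08 after centring by GC content. The whole list ranged in summed level from 1606 to 2134 TPM over the 10 mice. Several of its members were high in 8-week replicates 3 and 5, which held the highest pair of values in 5 of the 12 genes. Acta2, smooth muscle actin, measured 44.5, 58.5, 45.9, 37.1 and 44.6 TPM at 4 weeks and 41.3, 54.4, 157, 57.4 and 142 TPM at 8 weeks (log2 difference 0.76 ± 0.36, SE, unadjusted p = 0.0380, limma). Cnn1, calponin, was 21.3 and 16.8 TPM in those mice and at most 1.86 TPM in the other 8. Endothelial genes, of the vessel lining, had 13 of 14 members above 0 with a median of 0.19, which was 0.10 without 4-week replicate 5 and 0.09 after centring by GC content. At an unadjusted p under 0.05 stood 4 of the 14 in the 10-mouse fit (background 7.72%). Cdh5, a junction protein of that lining, differed by 0.22 (unadjusted p = 0.534, limma).

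Red blood cell genes had a median difference of -0.80 over the 5 tested, which was -0.51 without 8-week replicate 5. Hba-a1, an alpha globin, measured 2594, 1998, 3546, 6054 and 4640 TPM at 4 weeks and 2109, 2762, 2828, 1077 and 475 TPM at 8 weeks, with overlap (log2 difference -1.19 ± 0.66, SE, unadjusted p = 0.0797, limma). Its close copy Hba-a2 went the other way, with 277, 153, 296, 479 and 3419 TPM and then 1533, 1954, 2138, 808 and 772 TPM (log2 difference 1.52 ± 1.09, SE, unadjusted p = 0.170, limma). Reads of the copies can be exchanged, so neither value stands alone. Hbb-bs, a beta globin, had a log2 difference of -0.68 (unadjusted p = 0.308, limma).

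B and plasma cell genes had 12 of 12 members below 0 in control mice, with a median of -0.54, which was -0.22 without 4-week replicate 5. The non-cachectic mice had 12 of 12 above 0 with a median of 1.21. Pax5, a factor that keeps B cell identity, was 0.827, 0.540, 0.321, 0.492 and 1.155 TPM at 4 weeks and 0.3825, 0.150, 0.731, 0.333 and 0.127 TPM at 8 weeks in controls. In non-cachectic mice Pax5 was 0.203, 0.116, 0.270, 0.0228 and 0.222 TPM at 4 weeks and 0.823, 0.171, 2.32, 0.164 and 2.21 TPM at 8 weeks, high in 3 of the 5 later mice. The difference between the control and the non-cachectic change had an unadjusted p under 0.05 in 7 of the 12 genes (0.906% of all genes), the lowest for Pax5 (unadjusted p = 0.00493, limma, adjusted p = 1). These genes come from the same cells and are not independent, and across all 13578 genes 0 differed between control and non-cachectic mice at an adjusted p under 0.05.

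**Figure D5:**
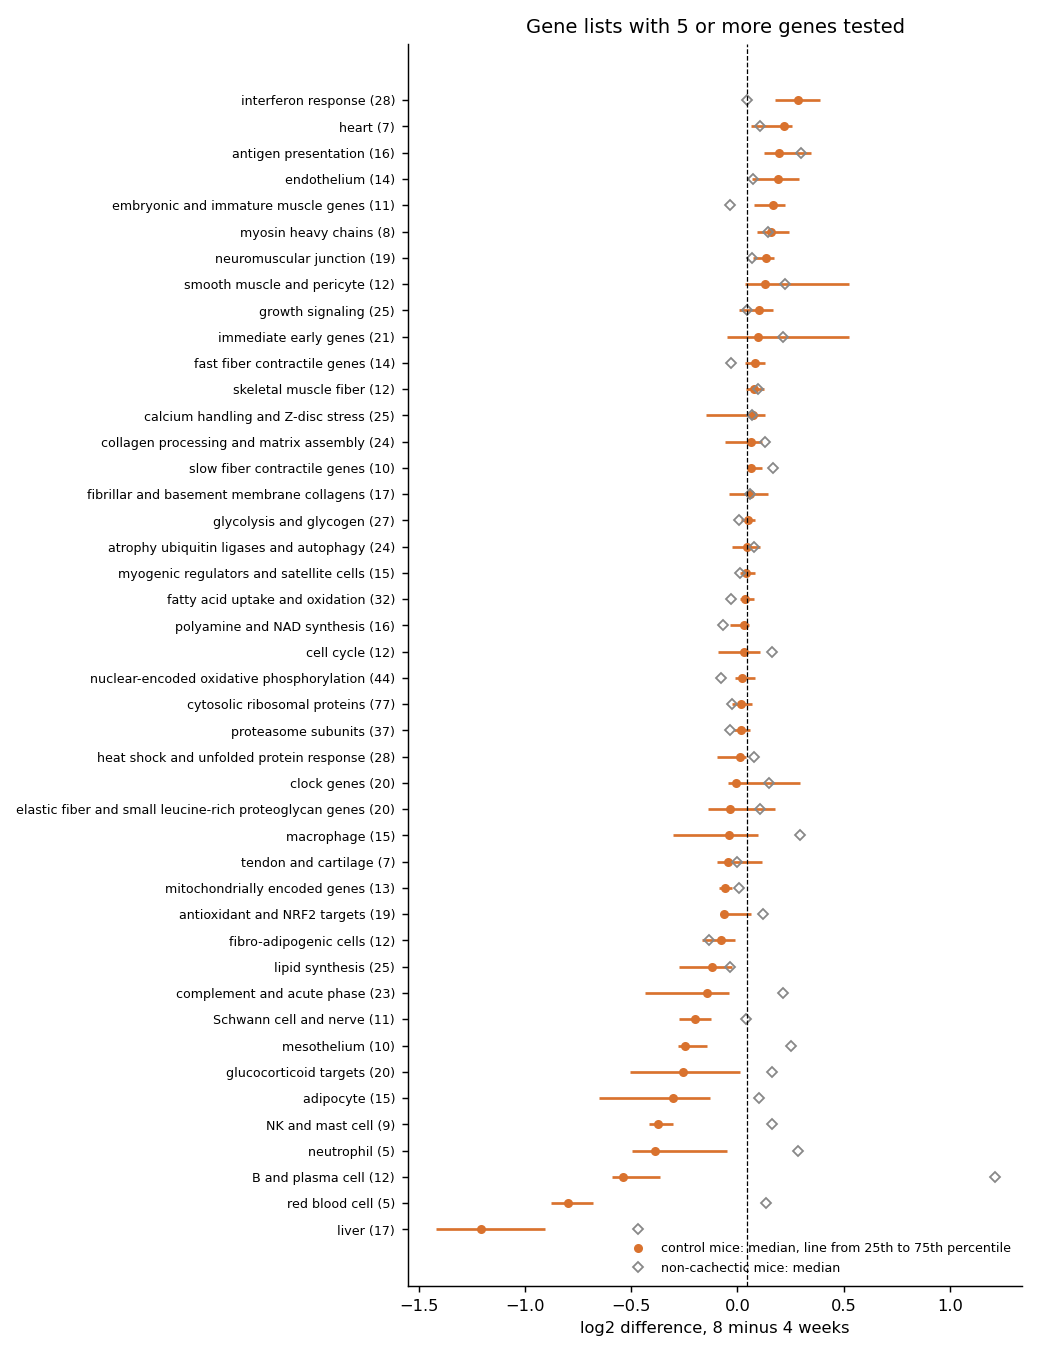
Gene lists with at least 5 genes tested (number in brackets), ordered by the median log2 difference, 8 minus 4 weeks, in control mice (orange dot, with a line from the 25th to the 75th percentile of its genes); open diamonds are the medians in non-cachectic mice and the dashed line is the median of all genes, 0.04. Interferon response is highest at 0.29 and liver lowest at -1.21 in control mice, and the B and plasma cell diamond, at 1.21, lies far from its dot.

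The non-cachectic mice gave a second look at the same weeks in other animals, which shared no library with the controls. At an adjusted p under 0.05, 0 genes were called, and 168 (1.24%) had an unadjusted p under 0.05, 151 of them higher (1.11%) and 17 lower (0.125%) at 8 weeks. In 224 genes (1.65%) the 5 and 5 mice did not overlap, 184 of them higher (1.36%) and 40 lower (0.295%). Of the 176 genes that did not overlap upward in control mice, 137 (77.8%) had differences above 0 in non-cachectic mice, against 67% of all genes tested. Of the 10 that did not overlap downward, 5 (50%) were below 0, against 33% of all genes. The GC trend given above ran the same way in both groups of mice, and its part in these shares was not tested.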

How the data were processed

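Diaphragm RNA was extracted with Trizol and sequenced on an Illumina NovaSeq from TruSeq libraries; the labels name the stranded mRNA kit, and the study's methods another TruSeq kit. The authors aligned trimmed reads to GRCm38 (mm10) in CLC Genomics Workbench and deposited TPM values per gene, without read counts, so depth is unknown. The annotation release, use of strand and treatment of multi-mapped reads are not given in the sources used here, and genes with near-identical or overlapping copies are uncertain.

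Groups were taken from the sample labels. Genes that reached 1 TPM in 5 or more of the 62 mice (13578 of 47643 listed) were fitted as log2(TPM + 1) with 1 mean for each of the 12 conditions (limma 3.58.1 with trend, R 4.3.3), and the contrast of control mice at 8 minus 4 weeks was adjusted by Benjamini-Hochberg over all of them. Within limma no batch term was used, since the labels give no batch. Alb and the liver list were compared by exact permutation of the 5 and 5 mice (Python 3.11.15). The scripts were tested on simulated data. Promoter windows came from RefSeq. Positions came from the GENCODE annotation of GRCm38, and 96.7% of the symbols tested had one. The GC content of a gene was that of its longest GENCODE transcript. Named genes were those without a clone name and outside the liver list, up to 12 in each direction, with the smallest p among genes without overlap and, beside them, a set of muscle, growth and clock genes. Gm20431, Gm5601, Gm10053 and the members of lists given as examples, such as the interferon genes, Cox5b, Atp5g1, Rapsn, Acta2 and the globins, were picked after their values were seen. The members and lists were chosen with earlier results of these data known. Alternatives covered the pseudocount (0.1), the filter, scaling (median ratios, quantiles, without mitochondrially encoded genes), the mice sharing the spread, array weights, a replicate block, Dunn's test, a liver covariate and leaving out each mouse. GC centring in 20 bins, the 10-mouse fits of GC centring, median-ratio scaling and the block, and leaving out the 4 libraries with the fewest genes were chosen after seeing the data. Over all genes tested, same-numbered mice did not deviate together (correlations from -0.32 to 0.07), so the numbers were not treated as pairs. Some genes did share an order: the glucocorticoid list rose with replicate number in both weeks, and Per2 was highest in replicate 5 of each. Values of 2 list members are not reported here.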

Additional observations from a re-analysis of the deposited data

Results flagged for a closer look

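The lowest or highest mouse of a group of 5 was compared with the other 4, as its gap to the nearest mouse over the whole range of the group, against Dixon's critical value of 0.71. Of 178 values tested in this way, genes and list means at 4 and 8 weeks, 12 (6.74%) passed, where chance gives about 1 in 20. All are on the log2(TPM + 1) scale.

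Interferon genes gave 2 of the 12, both low in the 4-week group. Oas2 had a lowest value of 0.7743 (next 1.713), and the mean of the interferon response list one of 2.139 (next 2.51). The mouse was replicate 5 in both. The liver list had a highest value of 5.677 at 4 weeks, in replicate 1, with the next at 2.792.

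At 8 weeks, replicate 1 gave 4 of the 6 low values. It was the lowest mouse for the elastic fiber and small leucine-rich proteoglycan list at 3.711 (next 4.387), for growth signaling at 3.561 (next 3.887), for the glycolysis and glycogen list at 7.482 (next 7.649) and for Tmem184c at 2.733 (next 3.135). Replicate 5 gave the other two, the neutrophil list at 0.3863 (next 0.6705) and Nr1d1, the clock repressor, at 5.831 (next 6.802). Fam212a had a highest value of 2.83 (next 2.56) and Alkbh6 one of 3.126 (next 2.833). At 4 weeks Mki67, of dividing cells, had a highest value of 1.264 (next 0.7922), in replicate 4. No gene passed the adjusted test of a difference between the control and the non-cachectic change (limma, 0 genes; 123 at an unadjusted p under 0.05).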

How the results depend on the processing

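The count of genes called between control mice at 8 and 4 weeks was 0 in the fit over 62 mice and stayed at 0 when any single mouse was left out (range 0 to 0), with another pseudocount, filter or scaling, in the 20 control mice, by Dunn's test and with the liver covariate. It was 1 in the 10 control mice alone, also with GC centring or median-ratio scaling there, and 357 with array weights, whose estimation stopped before it converged. Genes at an unadjusted p under 0.05 numbered 120, and 82 to 176 with single mice left out. They numbered 625 of 23900 without a filter, 186 with quantile normalization, 1048 in the 10 mice, 846 in the 20 control mice, 2849 with array weights, 492 by Dunn's test, 707 with GC centring in the 10 mice, 967 with median-ratio scaling in the 10 mice, and 482 without the 4 libraries that list the fewest genes. The cause of these shifts was not tested beyond the smaller spread of the 10 mice (median SE 0.0919 against 0.207). The 4 libraries with the fewest genes were 2-week cachectic replicates 3 and 4, 8-week cachectic replicate 3 and 2-week non-cachectic replicate 5. They listed 15069 to 16389 genes above 0, and none was a control. With a replicate block 0 genes were called and 114 had an unadjusted p under 0.05, and with the block in the 10 mice 1 was called and 1000 had one. The block changed no other call. In non-cachectic mice the count was 2 without a filter and 0 otherwise. The Alb difference stayed below 0, from -3.64 to -1.75 with single mice left out, and was -3.59 with the smaller pseudocount.

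Several genes with differences near 0 changed sign, and none of them was called. Myh1 was -0.032 with median-ratio scaling and -0.0321 with GC centring, in 62 and in 10 mice, -0.00354 without mitochondrially encoded genes, -0.00197 with the liver covariate, and -0.0608 to 0.114 with single mice left out. Col1a1 was -4.91e-05 with median-ratio scaling and -0.0457 with GC centring, in 62 and in 10 mice, and -0.0884 to 0.257 with single mice left out. Mki67 was 0.0352 with quantile normalization, 0.0437 with array weights, 0.0216 with the liver covariate, and -0.0989 to 0.0898 with single mice left out. Col3a1 was 0.056 with array weights and -0.278 to 0.147 with single mice left out, Pax7 was -0.0343 with GC centring in 62 and in 10 mice, and Per2 was -0.811 to 0.123 with single mice left out. In all, 31 of 1060 gene values under the alternatives changed sign, and 18 passed the threshold that the values above did not. The depth of the libraries is unknown, and the median 95% interval reached 0.415 to either side of a difference with the spread of 62 mice and 0.203 with that of the 10 mice.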

Other observations

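Among the 8359 genes with a mean of at least 5 TPM, the 100 with the widest spread within a week included 11 liver genes and 4 clock genes, 27 genes with a correlation over 0.8 to Alb across the 10 mice and 10 with an absolute correlation over 0.8 to Per2. Several others were all-or-none between mice.

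Rps26, a protein of the small ribosomal subunit, was 343, 351, 378, 348 and 224 TPM at 4 weeks and 345, 425, 0.442, 359 and 391 TPM at 8 weeks. Its pseudogene Rps26-ps1 was 293 TPM in 4-week replicate 5 and 493 TPM in 8-week replicate 3, the mice with the lowest Rps26, and at most 0.124 TPM in the other 8. The copies share sequence, so a read may be given to either. Cwc22, a splicing factor, was 94.7 TPM in 8-week replicate 1 and 3.99 to 4.95 TPM in the other 9 mice. Gm8730 was above 33 TPM in 6 of the 10 mice and at most 0.237 TPM in the other 4. H2-Ea-ps, a class II pseudogene, was 0 TPM in 8-week replicates 2 and 5 and over 22 TPM in the other 8 mice (log2 difference -2.13, unadjusted p = 0.0423, limma, adjusted p = 1).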
